A study of Homo sapiens with 6 samples.

Results

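DNA repair genes were taken by name from the cluster lists of purified Rbfox1 complexes. A gene was included when a cluster named it alone and the name began with FANC plus a letter, or with RAD, XRCC, ERCC, MSH, MLH or BRCA plus a digit, or was a POLD, POLE, POLH, POLI, POLK or POLQ symbol. This gave 60 of the 11805 genes named alone in the lists. They held 1521 of 188027 F125A clusters (0.81%) and 2795 of 366429 WT clusters (0.76%). All 60 had a WT cluster and 57 had an F125A cluster. The names include a few genes with other main roles: RAD21 encodes a subunit of cohesin, and RAD54L2 a helicase-like protein that interacts with the androgen receptor.

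The lists come from nuclease-protected RNA bound to FLAG-tagged Rbfox1 and the large assembly of splicing regulators, LASR, with which it is purified. F125A complexes (2 samples) carried Rbfox1 with a phenylalanine of its RNA recognition motif replaced, and WT complexes (3 samples) carried wild-type Rbfox1. A library of cells without a transgene (1 sample) was not analysed here. The host for all was HEK293 Flp-In, derived from human embryonic kidney and fitted with a site for inserting transgenes, and all lacked Rbfox2 through knockout, in the 1 line labelled clone 7. The labels do not name the promoter that drove the transgenes. A cluster is a stretch of an intron of a protein-coding gene, on hg38, that was covered by sequenced RNA. Each group has 1 list without read counts, so read depth is unknown, no value has a replicate error, and no test of the 2 proteins was possible. Intervals are exact binomial 95% intervals, and they cover counting error only. The 2 lists also rest on different numbers of libraries, so gene counts are read relative to the list totals, at 1.95 WT clusters for each F125A cluster. An intronic place list gives no expression level, so neither the cell type nor the knockout could be checked from it.

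Cells repair DNA through several pathways. Fanconi anaemia proteins undo crosslinks between the strands, homologous recombination copies an intact sister sequence into a double-strand break, and end joining ligates broken ends. Nucleotide excision removes bulky lesions, mismatch repair corrects replication errors, and translesion polymerases copy past damage that stops the replicative enzymes. Their genes are transcribed in most dividing cells, and many are rich in introns. Rbfox proteins bind GCAUG in introns, and the F125A change removes most of that sequence-specific contact, whereas LASR contains further RNA-binding proteins such as hnRNP M, hnRNP H and hnRNP C. hnRNP H binds runs of G and hnRNP C runs of U.

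The protected RNA itself could be read for 18 places, because those clusters lay inside a RefSeq promoter window (GRCh38.p14), the bases just before and after an annotated gene start. They belong to 8 genes and, being near annotated starts, are not typical of introns. The start of a window can lie well inside the gene bounds that are used for distances below. The ERCC1 place, for example, was centred 27.9 kb from the start of those bounds. The POLK place lies in the window of CERT1, on the opposite strand. The following places of MSH6, which encodes a subunit of the mismatch sensor, are shown because both lists cut the same run of RNA at nearly the same bases. Each is written 5′ to 3′ on the transcribed plus strand as DNA, and capitals mark the bases that the F125A cluster and the WT cluster share.
MSH6 chr2:47783562-47783599: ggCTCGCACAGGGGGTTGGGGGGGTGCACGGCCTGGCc
MSH6 chr2:47783710-47783772: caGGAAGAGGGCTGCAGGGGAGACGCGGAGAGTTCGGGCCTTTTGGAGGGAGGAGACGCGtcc
MSH6 chr2:47783770-47783811: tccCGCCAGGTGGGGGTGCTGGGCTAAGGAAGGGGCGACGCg
MSH6 chr2:47783812-47783886: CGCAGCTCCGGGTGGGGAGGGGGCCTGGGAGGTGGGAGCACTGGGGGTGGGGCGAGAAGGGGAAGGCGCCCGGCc
MSH6 chr2:47783892-47783983: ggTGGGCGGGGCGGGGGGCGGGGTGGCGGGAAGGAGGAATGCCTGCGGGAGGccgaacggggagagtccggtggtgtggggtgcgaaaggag
The last of them ended at 47783943 with F125A and at 47783983 with WT, and the other edges differed by 0 to 3 nt. All 5 hold GGGG on the transcribed strand, and their GC content was 66.7% to 79.0%.

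RAD17, which encodes the loader of a checkpoint clamp, gave places of a different composition, also on the transcribed plus strand and with shared bases in capitals.
RAD17 chr5:69371297-69371378: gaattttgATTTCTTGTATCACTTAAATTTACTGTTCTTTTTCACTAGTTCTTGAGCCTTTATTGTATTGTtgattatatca
RAD17 chr5:69371368-69371439: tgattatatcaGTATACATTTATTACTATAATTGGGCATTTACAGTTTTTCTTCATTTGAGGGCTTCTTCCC
Their GC content was 25.6% and 30.6%, and both hold TTTTT. These were the only 2 of the 18 places with that run.

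POLD1, the catalytic subunit of DNA polymerase delta, and FANCC, a subunit of the Fanconi core complex, gave places found in 1 list only. Here capitals mark GCATG, the DNA form of the sequence bound by Rbfox. POLD1 is written on its plus strand and FANCC on its minus strand.
POLD1 with F125A alone, chr19:50398610-50398648: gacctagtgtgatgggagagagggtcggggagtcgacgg
POLD1 with WT alone, chr19:50398708-50398760: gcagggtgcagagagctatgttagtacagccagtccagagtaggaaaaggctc
POLD1 with WT alone, chr19:50398761-50398789: gtggtcatggtgggtGCATGggatgccat
FANCC with F125A alone, chr9:95317244-95317289: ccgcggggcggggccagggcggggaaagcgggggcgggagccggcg
FANCC with F125A alone, chr9:95317291-95317341: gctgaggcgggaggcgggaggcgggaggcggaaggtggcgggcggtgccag
The second POLD1 place found with WT alone was the only 1 of the 18 with GCATG on the transcribed strand, and there it is part of the longer TGCATG. No place held GCATG on the other strand.

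Of the 18 places, 4 were found with F125A alone, 4 with WT alone and 10 in both lists. Both strands of each were searched for the Rbfox motif GCATG, for a run of T (TTTTT) and for a run of G (GGGG). On the transcribed strand GCATG was in 1 of the 4 with WT alone, in none of the 4 with F125A alone and in none of the 10 in both. GGGG was in 13 of the 18, against 26.1% of all 35116 windows in their first 55 bases, the median length of the places. For GCATG the same share of windows was 3.68%, and for TTTTT 7.17%. On the other strand GGGG was in 2 of the 18 and TTTTT in none, against 27.1% and 7.89% of windows. The first 55 bases of a window lie before its annotated start, whereas the places are protected RNA of varying length. The shares of places and of windows are therefore not like for like. The 18 places can be set beside all clusters of the lists that lie in such windows, here with chromosome 8 included. There GCATG was in 3.79% of 871 F125A clusters (interval 2.62% to 5.28%) and in 12.01% of 1016 WT clusters (10.1% to 14.2%). Among these WT clusters it was in 31.1% of the 286 without an F125A partner (25.8% to 36.8%) and in 4.52% of the 730 with one (3.13% to 6.29%). GGGG was in 81.3% of the F125A and 73.8% of the WT clusters of these windows. A match of letters does not show a bound site.

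Fanconi anaemia genes were among those with most clusters, and they differed in how the lists shared them. FANCL, the ubiquitin ligase subunit of the core complex (gene 55120, chromosome 2, 58159243 to 58241380), had 90 F125A and 174 WT clusters. FANCC had 36 and 111. FANCA, also of the core complex (gene 2175, chromosome 16, 89737549 to 89816647), had 73 and 87, so that nearly as many places were recovered with F125A as with WT. FANCI and FANCD2, the pair that is ubiquitinated at a crosslink, had 51 and 77, and 30 and 46. FANCB of the core complex had 29 and 41, and FANCM, a DNA translocase, 14 and 31. FANCG (4 and 7) and FANCE (3 and 5) had few. FANCD2 has pseudogene copies in the genome, and how reads from copies were placed is not given in the sources used here.

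To allow for list size, F125A clusters were divided by WT clusters after 1 was added to each count, and the log2 of this was set relative to that of the totals. A value of 0 stands for the ratio of the whole lists, and a positive value for relatively more F125A clusters. It is given for the 47 of the 60 genes whose F125A and WT clusters summed to 20 or more. FANCA lay at 0.71 (interval 0.24 to 1.18) and FANCC at -0.64 (-1.25 to -0.11), and neither interval reached 0 or overlapped the other. FANCB lay at 0.48, FANCI at 0.38, FANCD2 at 0.36, FANCL at 0.02 and FANCM at -0.13, each with an interval that held 0. Relative to genes of similar length, FANCA lay at 0.72 and FANCC at -0.43.

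**Figure D1:**
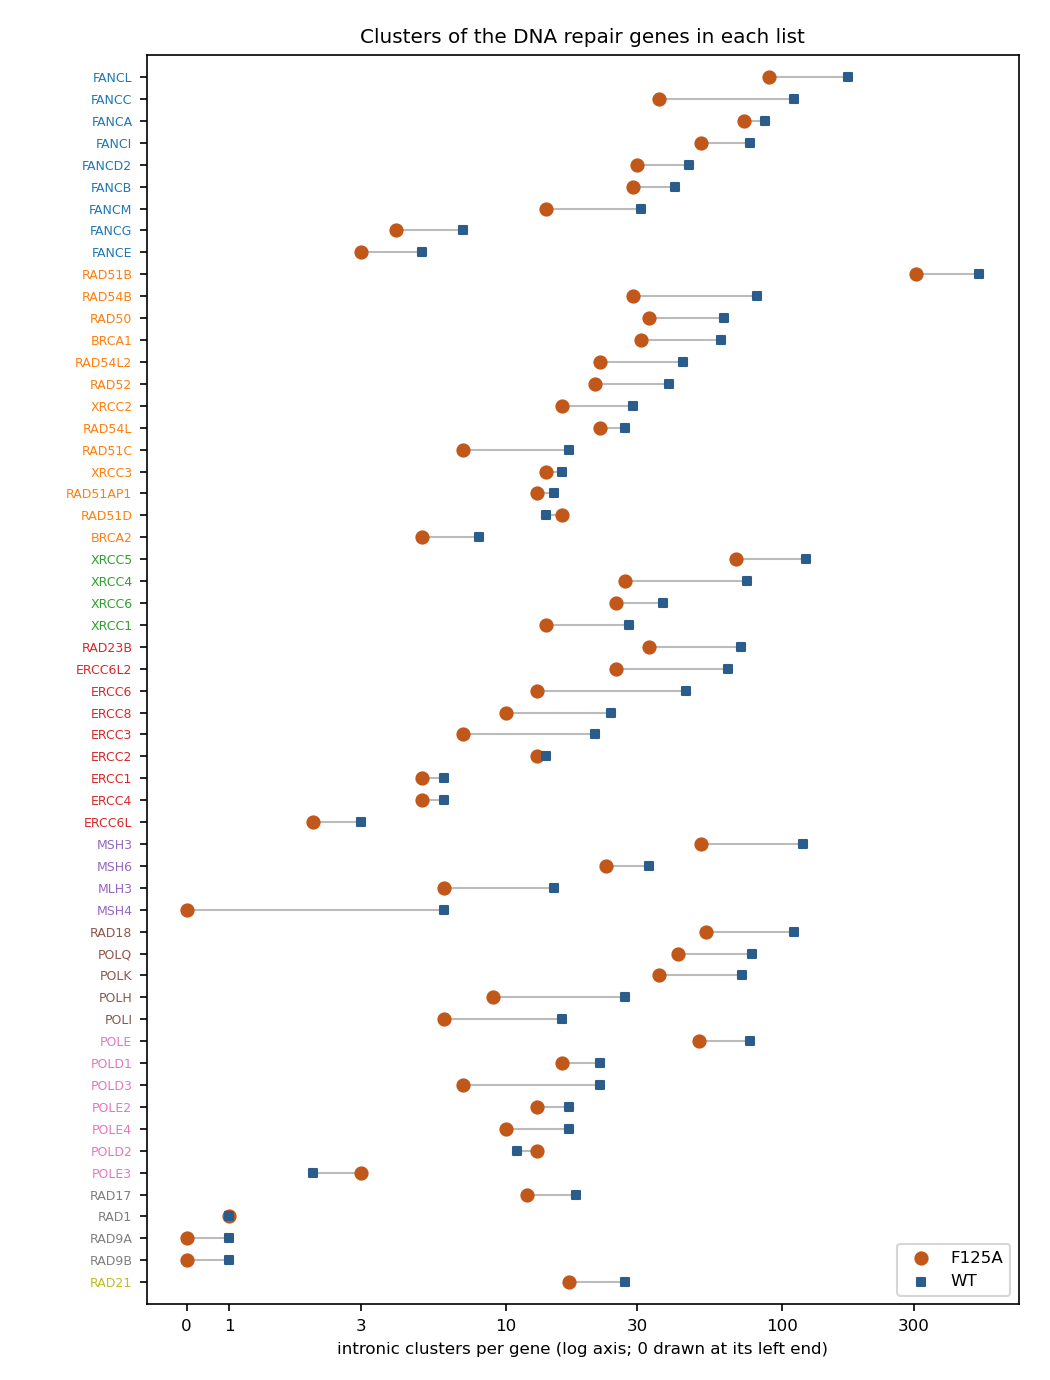
Clusters per gene in the F125A list (circles) and the WT list (squares) for 56 of the 60 DNA repair genes, on a log axis with 0 at its left end. Gene names are coloured by role in the order Fanconi anaemia, homologous recombination, end joining and single-strand breaks, nucleotide excision, mismatch, translesion, replicative polymerases, checkpoint clamp and cohesin, and only RAD51D, POLD2 and POLE3 have the circle to the right of the square.

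Homologous recombination was dominated by RAD51B (gene 5890, chromosome 14, 67819779 to 68683096), a recombination mediator in a very long gene. It had 307 F125A and 517 WT clusters, 20.2% of the F125A and 18.5% of the WT clusters of all 60 genes. Its log2 ratio was 0.21 (interval 0.00 to 0.42). RAD54B, a translocase, had 29 and 81 clusters (-0.49), and RAD50, the coiled-coil subunit of the break sensor, 33 and 62 (0.07). BRCA1, which also has a partial copy in the genome, had 31 and 60 (0.03), and RAD52, an annealing protein, 21 and 39 (0.10). A further 14 clusters in each list named RAD54B together with FSBP and are not counted here. A stretch of 5433 rows is identical in both lists, and whether these clusters lie in it was not checked. Their equal counts are therefore not read as equal recovery.

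Of RAD51C, RAD51D, XRCC2 and XRCC3, whose products act together in strand exchange, RAD51D alone had an interval above 0. RAD51D (gene 5892, chromosome 17, 35092221 to 35119860) had 16 F125A and 14 WT clusters, a log2 ratio of 1.14 (interval 0.03 to 2.30). XRCC3 had 14 and 16 (0.78, -0.38 to 1.90), XRCC2 16 and 29 (0.14), and RAD51C 7 and 17 (-0.21, -1.83 to 1.03). The intervals of RAD51D and RAD51C overlap. RAD54L, a translocase, had 22 and 27 (0.68), RAD51AP1, a cofactor of strand exchange, 13 and 15 (0.77), and RAD54L2 22 and 44 (-0.01). BRCA2, which loads the recombinase, had 5 and 8.

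In RAD51D a WT partner was found for 10 of the 16 F125A clusters, and the other 6 lay before and beyond these. The first F125A places were centred 0.17 and 0.30 kb from the gene start, where the first WT place lay at 1.45 kb. Farther along, F125A clusters without a partner were centred at 19.3, 21.9, 22.0 and 22.8 kb, and WT clusters without one at 12.5, 16.8, 17.1, 21.9 and 26.7 kb. From 1.45 to 11.6 kb all 10 F125A clusters and all 9 WT clusters had a partner.

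Of the 4 genes of end joining and single-strand break repair, 3 had a ratio above 0, beside 53.5% of all 5626 genes with at least 20 clusters. None had an interval clear of 0. Set against similarly long genes, 2 lay above 0 and 2 below, with XRCC1 at -0.27. XRCC5, which encodes Ku80 (gene 7520, chromosome 2, 216109348 to 216206293), had 68 F125A and 122 WT clusters (0.13, interval -0.33 to 0.56). XRCC6, which encodes Ku70, had 25 and 37 (0.42, -0.40 to 1.17). XRCC4, the scaffold of the end-joining ligase, had 27 and 75 (-0.48, -1.20 to 0.14). XRCC1, the scaffold of single-strand break repair, had 14 and 28 (0.01).

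The nucleotide excision group was formed by name (ERCC and RAD23). It also holds ERCC6L and ERCC6L2, whose part in that pathway was not checked here. Of its 6 genes with at least 20 clusters, 5 had a ratio below 0. The same 5 were below 0 when set against similarly long genes. Of all 5626 genes with that many clusters, 53.5% lay above 0. ERCC6, the Cockayne syndrome B protein, had 13 F125A and 45 WT clusters (-0.75, interval -1.84 to 0.09), the lowest ratio of the 47 genes. ERCC3, a helicase of TFIIH, had 7 and 21 (-0.50). ERCC6L2, another helicase-like gene, had 25 and 64 (-0.36). ERCC8, the Cockayne syndrome A protein, had 10 and 24 (-0.22), and RAD23B, a partner of the damage sensor XPC, 33 and 71 (-0.12). ERCC2, the other TFIIH helicase, had 13 and 14 and was the exception at 0.86 (-0.35 to 2.05). All 6 intervals held 0. The summed clusters of the 10 genes of the group were 117 and 260, a ratio of -0.18 (-0.52 to 0.13). ERCC1, ERCC4 and ERCC6L had 2 to 5 F125A and 3 to 6 WT clusters each.

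No mismatch repair gene had an interval clear of 0. MSH3, which recognises larger loops, had 51 F125A and 119 WT clusters (-0.24), MSH6 23 and 33 (0.46) and MLH3 6 and 15 (-0.23). MSH4, a meiotic family member, was found with WT only, in 6 places, too few for a ratio. The first of these, centred 0.42 and 0.45 kb from the gene start, touched each other.

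Among translesion genes, RAD18, the ligase that modifies PCNA at stalled forks, had 53 F125A and 111 WT clusters (-0.09, interval -0.60 to 0.38). POLQ, the polymerase of microhomology joining, had 42 and 78 (0.09), and POLK, a bypass polymerase, 36 and 72 (-0.02). POLH, which copies past ultraviolet lesions, had 9 and 27 (-0.52), and POLI 6 and 16 (-0.32). Of the 6 replicative polymerase genes, 5 lay above 0, and the 7 of the group had a ratio of the summed clusters (112 and 168) of 0.38 (0.02 to 0.73). Set against similarly long genes, 4 of the 6 lay above 0, with POLE4 at -0.47 and POLD2 at 0.46. The summed clusters of the 14 homologous recombination genes (541 and 939) gave 0.17 (0.01 to 0.32). Of these clusters RAD51B alone held 307 and 517, and no sum without it was made. The interval of the sum therefore does not speak for the other genes of the group. On either scale 9 of 12 genes of that group, which includes RAD54L2, lay above 0. Of all 5626 genes with at least 20 clusters, 53.5% had a ratio above 0. Whether the roles differ from each other was not tested. POLE, the leading-strand enzyme, had 50 and 77 (0.35), POLD1 16 and 22 (0.53), POLE2 13 and 17 (0.60), POLE4 10 and 17 (0.25) and POLD3 7 and 22 (-0.56). POLD2, the second subunit of polymerase delta (gene 5425, chromosome 7, 44114680 to 44124325), had 13 and 11, the highest ratio of the 47 genes at 1.18 (-0.07 to 2.51). RAD17 had 12 and 18 (0.42) and RAD21 17 and 27 (0.33). The clamp genes RAD1 (1 and 1), RAD9A (0 and 1) and RAD9B (0 and 1) were almost without clusters.

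**Figure D2:**
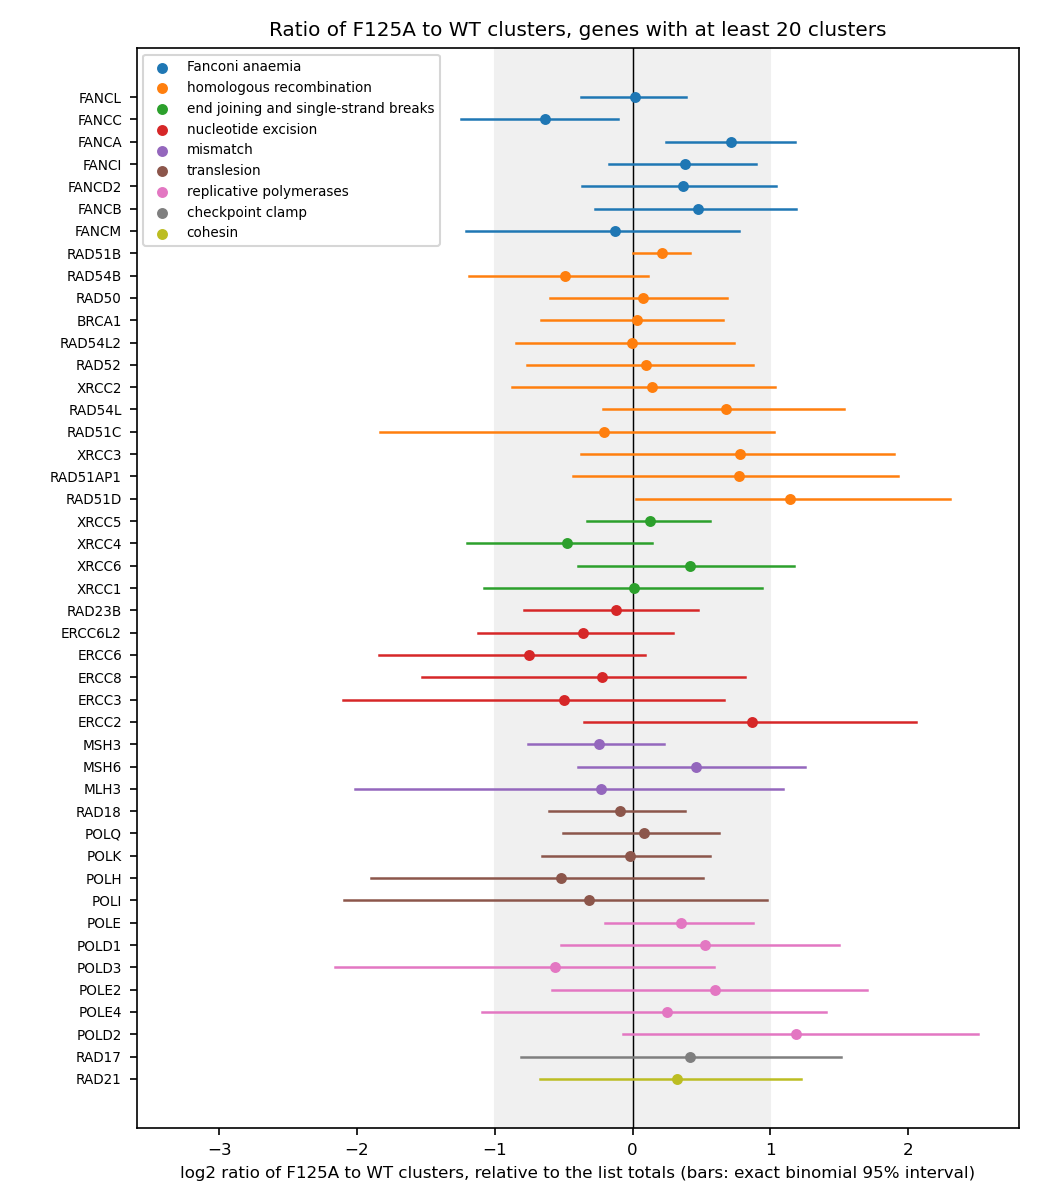
The log2 ratio of F125A to WT clusters relative to the list totals for 45 of the 47 genes with at least 20 clusters, coloured by role, with exact binomial 95% intervals as bars. The grey band spans 2-fold to either side, and only POLD2 (1.18) and RAD51D (1.14) lie outside it.

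By the size of the ratio, 2 of the 47 genes lay 2-fold or more toward F125A, POLD2 and RAD51D, and none toward WT. Over all 5626 genes with at least 20 clusters, 1.99% lay 2-fold or more toward F125A and 2.51% toward WT. ERCC2 at 0.86 came next below the bound. The count of 2 became 1 when repeated rows were kept (RAD51D at 0.95) and 0 when clusters closer than 50 nt were merged (RAD51D at 0.92). The median was 0.09 over the 47 genes (quartiles -0.21 and 0.42) and 0.04 over the 5626 (-0.26 and 0.36), and 28 of the 47 lay above 0 (59.6%, beside 53.5%). In 43 genes the counting interval held 0. It lay above 0 for 3, FANCA, RAD51B and RAD51D, and below 0 for 1, FANCC. Of the 5626 genes, 4.37% had an interval above 0 and 5.85% below 0, so these counts are no result about the DNA repair genes as a group.

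Length went with the ratio here as in all genes. POLD2, with the highest ratio, is 9.65 kb long, the shortest of the 47. Across the 47 genes, length and ratio had a Spearman's rho of -0.52, beside -0.57 for all 5626. Genes of a list share their libraries and are not independent, and the lengths are those of RefSeq genes with all their transcripts. After subtraction of the median of genes of similar length, POLD2 lay at 0.46 and RAD51D at 0.81, so that none of the 47 was 2-fold or more to either side. RAD51B then lay at 0.64, FANCB at 0.68, and the lowest were ERCC3 (-0.78), ERCC6 (-0.72) and POLH (-0.64). The counting intervals are relative to the list totals, so they do not apply to these values. The median of the 47 was then 0.04.

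**Figure D3:**
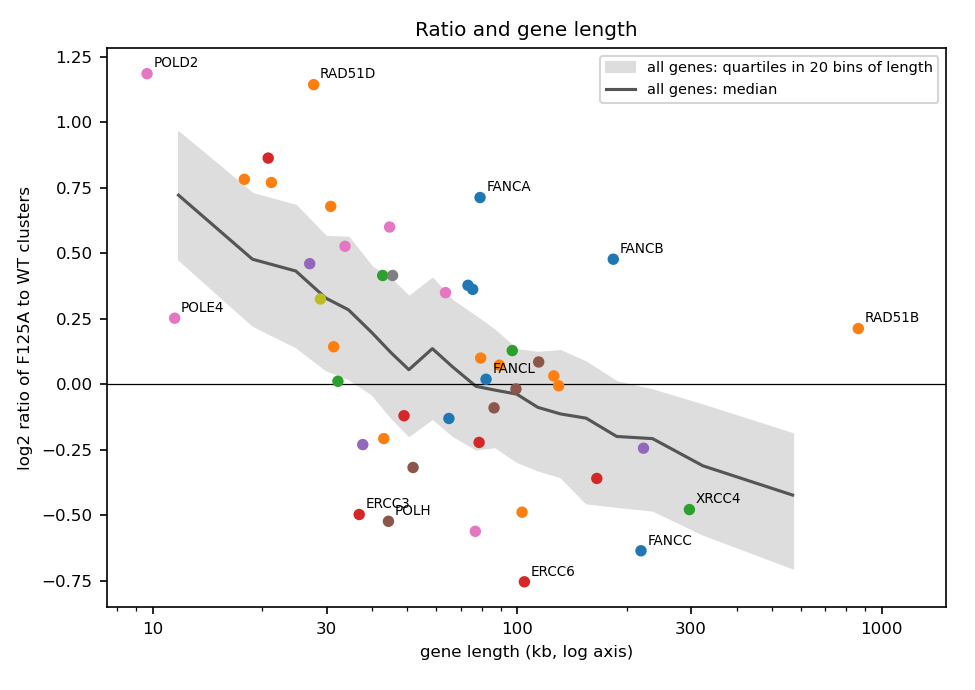
The log2 ratio of F125A to WT clusters (vertical) against gene length (horizontal, log axis) for 45 of the 47 DNA repair genes, coloured by role as in the plot of ratios, with the median (line) and quartiles (band) of all 5626 genes in 20 bins of length. POLD2 (1.18), the shortest gene, lies beyond the left end of the band and higher, RAD51B (0.21) beyond its right end and higher, FANCB (0.48) and FANCA (0.71) above it, and ERCC6 (-0.75) and ERCC3 (-0.50) lie below it.

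Per gene length, the recovery of DNA repair introns spanned a wide range. The 47 genes had 0.65 to 13.5 F125A clusters per 10 kb (median 3.63) and 1.34 to 21.2 WT clusters per 10 kb (median 6.09). Over the 5626 genes the medians were 2.97 with F125A and 5.80 with WT. FANCL was the densest with WT, at 21.2 per 10 kb, and had 10.96 with F125A. It stood at percentile 97.2 with F125A and 98.9 with WT among genes of similar length. XRCC5 stood at percentiles 96.1 and 96.8, POLE at 94.7 and 94.0, and RAD23B at 86.1 and 94.7. POLI, at 1.16 and 3.09 per 10 kb, stood at percentiles 3.6 and 7.8. The median percentile of the 47 was 56.9 with F125A and 53.0 with WT, that is near the middle. A gene's cluster number also depends on how much of its RNA was present, which the lists do not give.

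**Figure D4:**
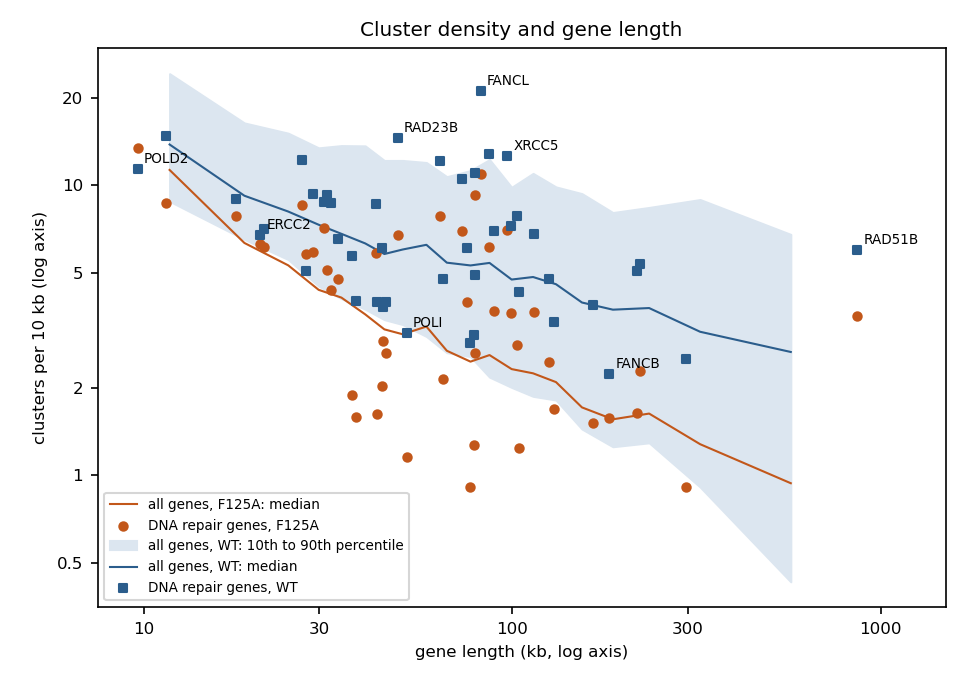
Clusters per 10 kb of gene (vertical, log axis) against gene length (horizontal, log axis) for 45 of the 47 DNA repair genes with F125A (circles) and WT (squares), over the medians of all 5626 genes in each list and the 10th to 90th percentile of WT. FANCL stands far above the WT band at 21.2 per 10 kb, and POLI lies just below its lower edge at 3.09.

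The densest 10 kb of a gene began within 1 kb of the same point in both lists in 19 of the 47 genes. In 35 the F125A and WT windows overlapped, and in 12, among them FANCC, POLQ and POLK, they did not. Over the 5624 genes with such a window in both lists, 41.7% began within 1 kb and 26.5% did not overlap, so the counts for the DNA repair genes lay near those of all genes. RAD51B had its clusters in the 5′ part of the gene. The stretch from 86.3 to 172.7 kb held 110 F125A and 158 WT clusters, and that from 172.7 to 259.0 kb held 105 and 152. The stretch from 604.3 to 690.7 kb held 2 and 6, and there were none in either list beyond it. The last cluster was centred 656 kb from the gene start in both lists. Its densest 10 kb began at 80.3 kb with F125A, where it held 26 clusters, and at 80.0 kb with WT, where it held 39. FANCL had its densest 10 kb at 43.9 kb with F125A (26 clusters) and 43.2 kb with WT (42 clusters). XRCC5 had it 1.40 kb and 1.41 kb from the start, with 16 and 24. FANCB clusters sat near its start, with medians at 1.9% of the gene length with F125A and 5.4% with WT. That length, 183.5 kb, is the span of its RefSeq bounds over all transcripts, so these shares depend on the annotation.

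**Figure D5:**
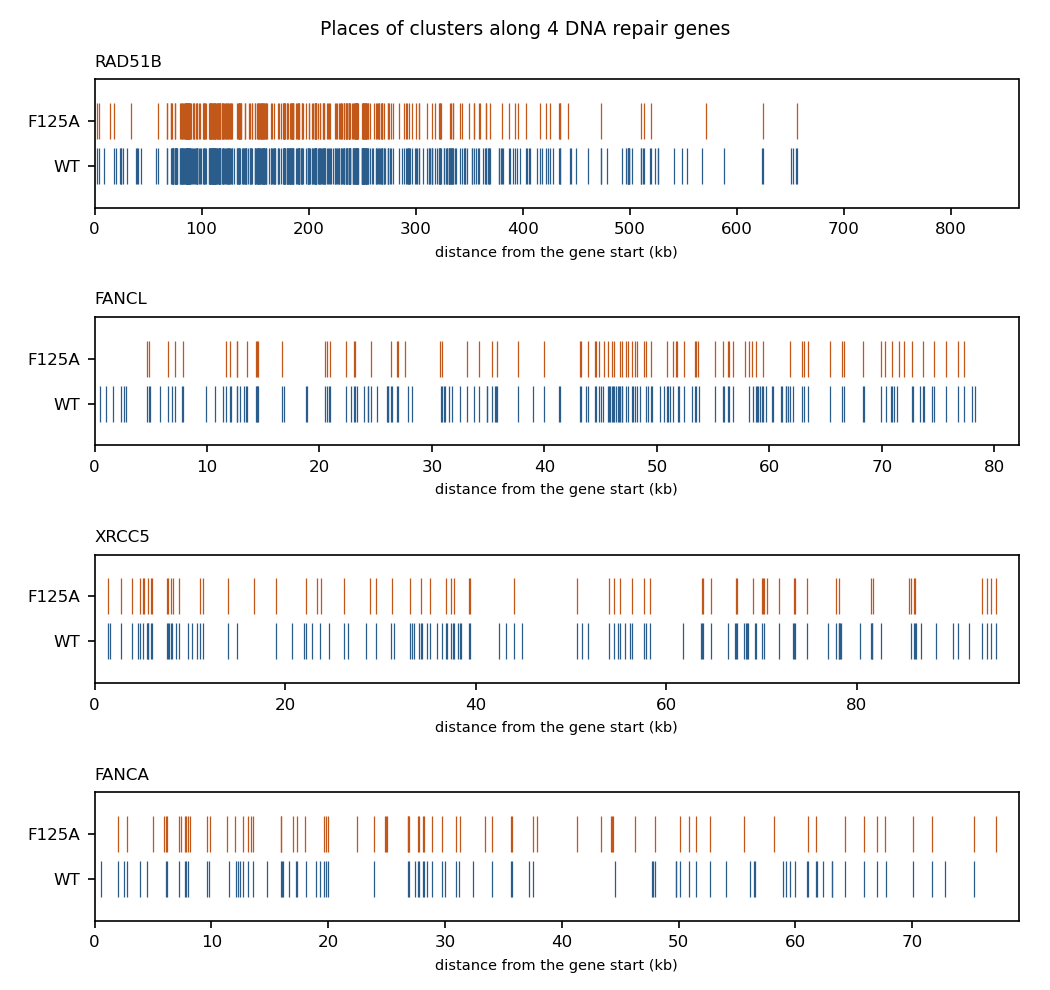
Places of clusters along RAD51B, FANCL, XRCC5 and FANCA, with 1 tick for each cluster centre, at its distance from the annotated gene start in kb, F125A above WT. Ticks of both lists crowd in FANCL after 43.9 kb, and RAD51B has none after 656 kb.

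Most F125A places in these genes were also WT places. With at least 1 shared base on the same strand, 1272 of 1521 F125A clusters had a WT partner, or 83.6% (interval 81.7% to 85.5%), beside 85.3% (85.1% to 85.5%) in all other genes and 85.5% in the whole list. In the other direction, 1306 of 2795 WT clusters had an F125A partner, or 46.7% (44.9% to 48.6%), beside 44.7% in all other genes and 45.2% in the whole list. The WT list is the longer, which limits the second share. The whole-list shares also count the clusters that name several genes. By gene, all 13 F125A clusters of ERCC6 and all 12 of RAD17 had a partner, and 83 of 90 did in FANCL (92.2%, 84.6% to 96.8%), 50 of 53 in RAD18 (94.3%) and 267 of 307 in RAD51B (87.0%). FANCA had a lower share, with 51 of 73 (69.9%, 58.0% to 80.1%), as did FANCI with 37 of 51 (72.5%, 58.3% to 84.1%) and POLQ with 31 of 42 (73.8%, 58.0% to 86.1%). FANCA thus had 22 F125A places without a WT partner. For FANCC, 31 of 36 F125A clusters had a partner and 80 of its 111 WT clusters had none.

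Partners began and ended at nearly the same bases. Over the 1272 pairs the 5′ edges differed by a median of 4 nt and the 3′ edges by 4 nt, and in 434 pairs (34.1%) both edges lay within 5 nt, beside 33.3% in other genes. In 30 pairs the places were identical. F125A clusters of the DNA repair genes had a median length of 65 nt (quartiles 51 and 84) and WT clusters of 61 nt (48 and 78). The difference was not seen within pairs, where the F125A cluster was longer in 548, shorter in 655 and equal in 69. Clusters with a partner had a median of 64 nt in each list, whereas those without one had 70 nt with F125A and 58 nt with WT. Other genes were alike, with medians of 64 nt with F125A and 60 nt with WT. There the medians were 63 nt in each list with a partner, and 68 nt (F125A) and 57 nt (WT) without one. F125A had the longer median in 35 of the 47 DNA repair genes, WT in 11, and 1 was equal, a count that was not made for all genes. The longest were 207 nt with F125A, in BRCA1, and 186 nt with WT.

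Some clusters abut. Of neighbouring clusters in a gene, 74 of 1464 pairs touched with F125A (5.05%) and 169 of 2735 with WT (6.18%), beside 5.58% and 6.03% in other genes. When clusters closer than 50 nt were joined, 10 runs of 4 or more clusters formed with F125A and 17 with WT. The longest by number was in MSH6, shown above in part, where 7 WT clusters spanned 500 nt from 47783484 to 47783983, from 0.34 kb after the gene start. With F125A, 5 clusters spanned 292 nt there, from 47783652 to 47783943. RAD51B held the F125A run with most clusters, 6 over 380 nt (chromosome 14, 67996776 to 67997155). Runs at the same place in both lists also lay in RAD18 (from 8943906 with F125A and 8943901 with WT), in RAD50 and in POLE.

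Near the gene start the F125A share was the larger. Within 1 kb of the annotated start lay 50 F125A clusters, 3.29% (interval 2.45% to 4.31%), and 51 WT clusters, 1.82% (1.36% to 2.39%). In other genes the shares were 3.37% and 1.96%. MSH6 gave 7 to each list, and FANCB 5 with F125A and 4 with WT. Since the WT list is 1.95 times as long, equal numbers near the start correspond to a larger share with F125A.

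A list of 82 other DNA repair genes, not caught by the names, had 80 with a cluster and 44 with at least 20. The ratio was positive in 27 of these 44 and negative in 17, beside 53.5% of all 5626 genes above 0. The median ratio of the 44 was 0.05, or 0.01 relative to genes of similar length. Those with most clusters were BRIP1, a Fanconi helicase (174 F125A and 302 WT, 0.17), PRKDC, the kinase of end joining (182 and 267, 0.41), REV3L, the catalytic subunit of a translesion polymerase (153 and 252, 0.25), and MNAT1, a subunit of the TFIIH kinase (130 and 260, -0.03). POLN, a polymerase gene, was the only 1 of the 44 past 2-fold, with 3 and 32 (-2.08, interval -4.80 to -0.78), toward WT. Genes of the name pattern without a cluster of their own were FANCF, POLD4, RAD21L1, RAD51AP2 and FANCD2OS, while ERCC5 and MSH5 stood only in clusters naming several genes, 11 and 30 in each list. As for RAD54B with FSBP, these equal counts are not read as equal recovery. Whether these clusters lie in the stretch of rows identical in both lists was not checked.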

How the data were processed

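Libraries held inserts of 20 to 80 nt and molecular identifiers of 4 nt, per the labels' protocols. The tools cutadapt and STAR and the build hg38 are named, without versions, in the submitters' processing notes. How clusters were called, at what threshold, and how libraries were pooled or the control used is not given in the sources used here. Each deposited list has chromosome, start, end, gene, region and strand, per the file headers, with no other unit than position in nt. Starts are 0-based in the files and printed 1-based. No per-sample column exists (0 unused).

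Repeated rows were dropped (47 F125A and 92 WT rows of these genes). A stretch of 5433 rows is identical in both lists and holds 0 rows that name these genes alone. Rows naming several genes were not looked up in it. Gene places and lengths are those of RefSeq GRCh38.p14 (all 60 symbols matched), and all 4316 clusters lay within their gene. Distances use cluster centres. Similar length means the same of 20 bins. Python 3.11.15, pandas 2.3.3, scipy 1.17.1 and matplotlib 3.10.9 were used. The ratio step was run on simulated counts with changes larger than any of the 47 genes. The partner step was run on shifted copies of clusters. These runs checked the steps and not the results. Genes with at least 20 clusters or 2-fold to either side were named, and the rest given by counts (a few are counted in the totals but not reported here by name), with some named after their values were seen. Of the other genes, the 4 with most clusters and those past 2-fold were named. Members, the 82 other genes and the alternatives were chosen with earlier results of these data known. Places without a genome sequence could not be printed.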

Additional observations from a re-analysis of the deposited data

How the results depend on the processing

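The count of genes 2-fold or more toward F125A, 2 as reported (POLD2 and RAD51D), became 1 with repeated rows kept (POLD2, with RAD51D at 0.95) and 0 when clusters closer than 50 nt were merged (RAD51D 0.92, POLD2 under 20 clusters) or genes of similar length were the base (POLD2 0.46, RAD51D 0.81). It was 2 with 5 added in place of 1, with the identical stretch left out, with the median gene subtracted and with a minimum of 10 clusters. No gene lay 2-fold or more toward WT under any of these 7 alternatives. The median ratio was 0.04 to 0.16. Of 280 single-gene values under alternatives, 279 lay inside the counting interval, the exception being RAD51B relative to similar length. That interval is relative to the list totals, so the exception compares unlike scales. Many intervals are wide, and leaving out the identical stretch or subtracting the median gene moved all genes alike. The count of values inside therefore says little about stability. With gaps of up to 50 nt allowed, 85.8% of F125A and 51.2% of WT clusters had a partner. Merging gave median lengths of 68 nt with F125A and 65 nt with WT. Within 5 kb of the start lay 10.5% of F125A and 8.01% of WT clusters. Without RAD51B, an alternative chosen after seeing the data, partner shares were 82.8% and 45.2%. No paired analysis was possible because each group has 1 list and its columns carry no replicate. Without read counts, depth limits cannot be given, and small genes have wide intervals.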
